A study of Homo sapiens with 3 samples.

Results

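IRX1, IRX2 and POU3F2 are transcription factor genes associated with glucagon-producing alpha cells, and they were chosen by gene symbol, as 3 of the 33538 features of each count matrix. HUES8, an established line of human embryonic stem cells, was differentiated by a published protocol into SC-α cells, that is, stem-cell-derived alpha cells. Clusters of these cells were dispersed and profiled by droplet single-cell RNA sequencing with 10x Genomics 3' v3 chemistry. The series has 1 group of 3 libraries, replicates 1 to 3, with no second genotype, treatment or time point among the samples used here, so each comparison is between cells of the same libraries. The labels do not state if each replicate was its own differentiation, so the p-values measure only the spread between these libraries, which may be technical.

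Glucagon, the hormone that raises blood glucose, is made in the pancreatic islet by alpha cells. IRX1 and IRX2 encode Iroquois homeodomain proteins, which bind DNA and act in patterning of many organs; in human islets both transcripts are known as enriched in alpha cells over beta cells. POU3F2, also called BRN2, encodes a POU-domain protein best known from neural development, and its relative POU3F4 is a regulator of glucagon transcription in rodents.

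In the GENCODE 29 annotation of GRCh38, IRX1 (ENSG00000170549) lies at chr5:3596054-3601403 on the plus strand with 4 exons. The antisense gene AC016595.1 overlaps IRX1, and strand handling in the counting is not given in the sources used here. IRX2 (ENSG00000170561) lies at chr5:2745845-2751662 on the minus strand, 844392 bases from IRX1. Its neighbour C5orf38 begins 469 bases from the IRX2 start and is transcribed in the opposite direction. POU3F2 (ENSG00000184486) is a gene of 1 exon at chr6:98834592-98839470 on the plus strand. Because IRX1 and IRX2 were both higher in glucagon-only than in TPH1 and collagen cells, the 250 bases before each RefSeq start are shown for all 3 genes, 5′ to 3′ on the gene's strand, from GRCh38.p14: chr5:3595582-3595831 (plus) for IRX1, chr5:2751678-2751927 (minus) for IRX2 and chr6:98834324-98834573 (plus) for POU3F2. Capitals mark a GC box (GGGCGG) or a CCAAT box (CCAAT) on either strand; matches that overlap run together.

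IRX1: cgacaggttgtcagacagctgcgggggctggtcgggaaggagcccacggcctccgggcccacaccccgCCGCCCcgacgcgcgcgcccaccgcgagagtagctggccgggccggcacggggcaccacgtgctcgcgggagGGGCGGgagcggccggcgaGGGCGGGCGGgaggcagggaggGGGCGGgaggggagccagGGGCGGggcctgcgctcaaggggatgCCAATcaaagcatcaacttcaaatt
IRX2: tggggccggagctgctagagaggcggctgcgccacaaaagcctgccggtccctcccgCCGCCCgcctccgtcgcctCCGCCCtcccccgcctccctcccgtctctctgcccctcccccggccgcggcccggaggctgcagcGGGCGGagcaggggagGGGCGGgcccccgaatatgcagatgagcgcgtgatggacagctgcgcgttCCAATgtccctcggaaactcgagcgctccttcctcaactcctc
POU3F2: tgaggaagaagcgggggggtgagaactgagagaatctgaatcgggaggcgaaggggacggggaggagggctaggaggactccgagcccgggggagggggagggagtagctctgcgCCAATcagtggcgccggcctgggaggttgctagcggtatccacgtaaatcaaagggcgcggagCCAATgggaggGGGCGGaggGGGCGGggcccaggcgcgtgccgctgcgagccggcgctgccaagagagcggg

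The windows of IRX1, IRX2 and POU3F2 hold 75.2%, 72.8% and 69.2% G or C, against a median of 58% over 35116 RefSeq promoter windows of the same length. GC boxes occur 6, 4 and 2 times, and 42.6% of all windows hold at least 1. CCAAT boxes occur 1, 1 and 2 times, and 32.0% of all windows hold at least 1. The homeodomain core TAATTA, the forkhead motif TGTTTAC, the Iroquois motif ACANNTGT and the octamer ATGCAAAT, searched on both strands, have no match in any of the 3 windows; 4.35%, 2.98%, 4.71% and 1.63% of all windows hold them. The E-box CACGTG, also searched, occurs 1, 0 and 0 times, and 6.34% of all windows hold it. The TATA box TATAAA has no match in the windows of these genes, and 10.7% of all windows hold it. These matches describe letters in a window and not binding.

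The 3 libraries together held 9683 barcodes, with totals of 30139788, 31122791 and 30980799 unique molecular identifiers (UMIs, 1 per captured RNA molecule). A barcode was kept if it showed 1000 genes or more and mitochondrial genes took up no more than 20% of its UMIs: 1160, 1027 and 1466, with medians of 15267, 20721 and 9991.5 UMIs. Scrublet marked 47 of the 3653 kept barcodes as doublets, 1.29%; they were kept here and removed in an alternative. Libraries shared 1 to 4 barcode sequences in each pair. Glucagon-only cells had at least 5% of UMIs from GCG, the glucagon gene, and met none of the other rules; there were 809, 778 and 884. INS or SST cells had at least 1% of UMIs from insulin or somatostatin (55, 104 and 35). TPH1 cells had at least 3 UMIs of TPH1, the serotonin synthesis enzyme, and under 5% GCG (33, 17 and 105). Collagen cells had at least 5 collagen UMIs, which made up at least 0.1% of the cell's UMIs (9, 10 and 89). They also had under 5% GCG and met neither the TPH1 nor the INS or SST rule. Cells with at least 3 UMIs of the neural progenitor gene FABP7 outside those groups numbered 19, 3 and 47, and 232, 112 and 303 cells remained. Cells with at least 5% GCG that also met the TPH1 or collagen rule were in none of these groups. They numbered 3, 3 and 2 for TPH1 and 0, 0 and 1 for collagen. In glucagon-only cells all 9 alpha-cell markers were detected, as they were in INS or SST, collagen and remaining cells. Their summed level in glucagon-only cells was 77585 to 80060 CPM (counts scaled to 1000000 UMIs), mostly TTR. It was 69774 to 71114 CPM in INS or SST, 54325 to 59140 CPM in remaining, 12157 to 23319 CPM in TPH1 and 545 to 788 CPM in collagen cells. The order of these sums followed TTR, whose means in these groups, in the same order, were 74535, 66804, 50946, 13523 and 605 CPM. They do not give the order of the other markers, some of which went the other way. Mean GC and CRYBA2 were 1927 and 3524 CPM in TPH1 cells against 696 and 2768 CPM in glucagon-only cells. In remaining cells mean GC and DPP4 were 1148 and 785 CPM against 696 and 377 CPM in glucagon-only cells. Mean PLCE1 was 33.5 CPM in FABP7 and 13.5 CPM in collagen cells against 4.23 CPM.

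IRX1 was highest in glucagon-only and INS or SST cells. Its level in glucagon-only cells was 125.3, 140.7 and 122.3 CPM in replicates 1, 2 and 3 (129 ± 9.85, SD, n = 3). In INS or SST cells it was 101.5, 133.2 and 134.2 CPM, and these values overlapped those of glucagon-only cells. In the remaining cells it was 88.5, 117.8 and 101.5 CPM, below every glucagon-only value. TPH1 cells held 66.0, 60.4 and 47.8 CPM, collagen cells 26.3, 36.3 and 24.2 CPM and FABP7 cells 25.5, 19.7 and 41.1 CPM. The TPH1 values lay above all collagen and FABP7 values, and the last 2 groups overlapped.

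IRX2 was highest in glucagon-only, remaining and INS or SST cells. Glucagon-only cells held 414.1, 449.0 and 404.0 CPM (422 ± 23.6, SD, n = 3), INS or SST cells 360.8, 415.4 and 350.7 CPM, and the remaining cells 412.0, 448.6 and 345.3 CPM. These 3 groups overlapped. TPH1 cells held 309.7, 379.9 and 192.4 CPM, a spread that reached into the INS or SST range in replicate 2. FABP7 cells held 117.9, 118.1 and 80.7 CPM and collagen cells 39.4, 48.5 and 43.1 CPM, and no value of either group reached that of any TPH1 sum.

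POU3F2 was sparse and differed between libraries. In glucagon-only cells it was counted 158, 41 and 98 times, or 10.99, 2.43 and 10.1 CPM, so that replicate 2 was low although it was the deepest library by median UMIs. INS or SST cells held 9.40, 3.30 and 2.16 CPM and the remaining cells 16.6, 3.20 and 8.61 CPM, both overlapping glucagon-only cells. TPH1 cells had 2, 0 and 0 UMIs and collagen cells 0, 0 and 1 UMI. FABP7 cells had 13, 0 and 12 UMIs, or 41.4, 0 and 17.6 CPM, above the glucagon-only value of the same library in replicates 1 and 3; in replicate 2 that group had 3 cells, and its count of 0 allows up to 29.5 CPM. The ratio of FABP7 to glucagon-only cells was 3.77 in replicate 1 (exact 95% interval 1.96 to 6.63, counting error only) and 1.74 in replicate 3 (0.868 to 3.18). In replicate 1, 1 FABP7 cell held 5 of the 13 UMIs, and in replicate 3 another held 5 of the 12. The summed neural markers, a list that includes FABP7 itself, were 3013 to 5995 CPM in that group against 43.3 to 61.0 CPM in glucagon-only cells.

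All cells with at least 5% GCG, the cells of other groups included, numbered 854, 860 and 914. Their levels were 128 ± 9.43 CPM for IRX1, 420 ± 22.5 CPM for IRX2 and 7.82 ± 4.44 CPM for POU3F2 (SD, n = 3), within the spread of the glucagon-only cells.

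**Figure D1:**
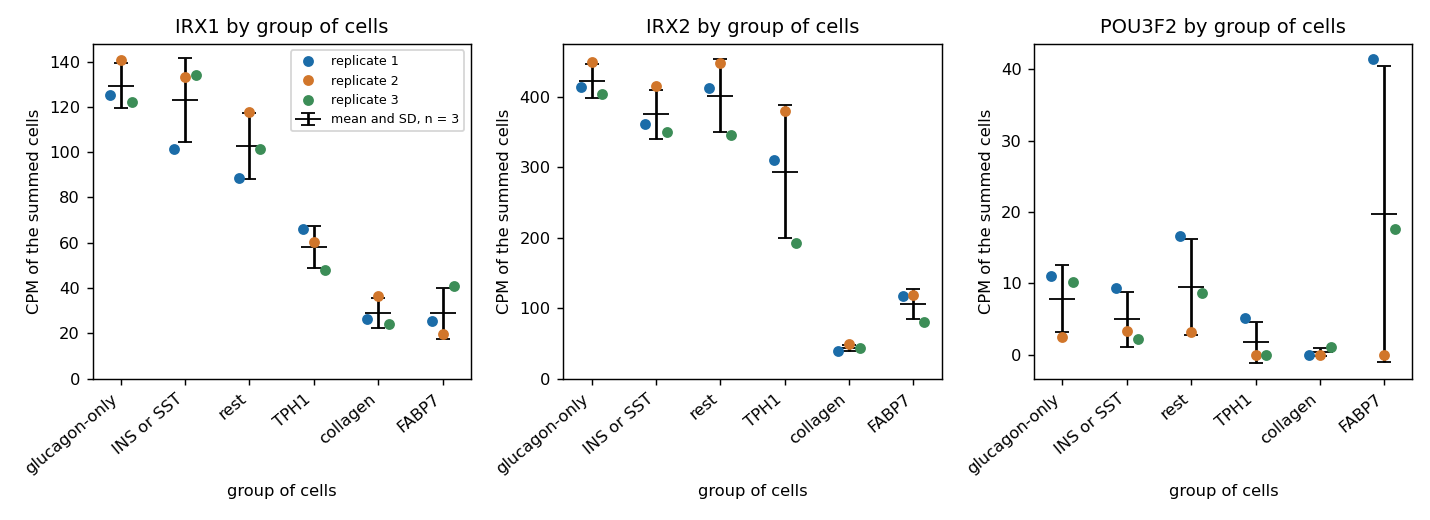
Level of IRX1, IRX2 and POU3F2 (CPM of the summed cells, vertical axes with different scales) in 6 groups of cells (horizontal axis); points are the 3 libraries and bars the mean and SD. IRX1 and IRX2 are lowest in collagen and FABP7 cells, and POU3F2 is lowest in replicate 2 in glucagon-only, FABP7 and remaining cells.

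A UMI was found in most glucagon-only cells for IRX2, in many for IRX1 and in few for POU3F2. The share of glucagon-only cells with at least 1 UMI was 80.3%, 84.1% and 66.3% for IRX1, 97.0%, 95.2% and 94.8% for IRX2 and 13.0%, 4.37% and 7.81% for POU3F2. Collagen cells, the group set beside them here, had an IRX1 UMI in 33.3%, 30% and 18.0% of cells. They had an IRX2 UMI in 22.2%, 60% and 32.6%, and a POU3F2 UMI in 0 of 9, 0 of 10 and 1 of 89 cells. Median depths were 16413, 21634.5 and 10391.5 UMIs in glucagon-only and 16431, 15194.5 and 9445 UMIs in collagen cells. At an expected depth of 5000 UMIs per cell, IRX1 was detected in 44.5%, 48.5% and 44.1% of glucagon-only cells against 14.98%, 20.9% and 10.9% of collagen cells, and IRX2 in 83.9%, 85.7% and 83.4% against 10.9%, 34.0% and 17.1%. The IRX1 share in TPH1 cells was 26.1%, 20.004% and 15.6% at that depth, above the collagen share of the same library in replicates 1 and 3 and below it in replicate 2, and the IRX2 share was 68.1%, 81.3% and 45.5%, above the collagen share in every library. IRX2 UMIs per 1000 GCG UMIs were 2.71, 2.77 and 3.14 in glucagon-only cells and 45.1, 67.2 and 56.5 in collagen cells. The collagen values rest on 6, 8 and 41 IRX2 UMIs. GCG is part of the rule of both groups, so a higher ratio in collagen cells follows in part from the rule. The ratio therefore cannot tell where the IRX2 UMIs of collagen cells came from. How much of the count in collagen cells came from RNA outside the cell was not tested.

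Within a glucagon-only cell, IRX2 was counted several times and the other genes once or a few times. In replicates 1, 2 and 3, 27.9%, 44.9% and 5.66% of cells had 10 or more IRX2 UMIs, the order of the libraries' depths. For IRX1 the share with 10 or more was 1.36%, 3.34% and 0.113%. No cell had 10 POU3F2 UMIs. The 5% of glucagon-only cells with the most UMIs of a gene held 78.3 ± 20.4% of its UMIs for POU3F2, 18.3 ± 0.86% for IRX1 and 14.4 ± 0.91% for IRX2. In replicate 2, 95.6% of these cells had no POU3F2 UMI, so the top 5% held all of them by construction. Such a share depends on how sparse a gene is and does not show that POU3F2 is concentrated in few cells. The number of IRX2 UMIs per IRX1 UMI was 3.27 ± 0.0644 (SD, n = 3) in glucagon-only cells, 5.00 ± 1.16 in TPH1 cells and 1.54 ± 0.227 in collagen cells. The ratio was above every glucagon-only value in the TPH1 sums and below every one in the collagen sums. The collagen ratios rest on 6, 8 and 41 IRX2 UMIs and 4, 6 and 23 IRX1 UMIs. TPH1 sums held 122, 88 and 165 IRX2 UMIs and 26, 14 and 41 IRX1 UMIs. In FABP7 cells the ratio was 4.63, 6 and 1.96, on both sides of the glucagon-only values. The ratio counts molecules captured at the 3' end, so it is not a ratio of transcripts per length.

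IRX1 and IRX2 were both higher in glucagon-only than in TPH1 cells. The fitted log2 fold change was 1.70 ± 0.17 (SE) for IRX1, with an edgeR quasi-likelihood adjusted p of 2.6e-08, and 1.13 ± 0.14 for IRX2, with an adjusted p of 7.2e-07. Both were higher in 3 of 3 libraries, and over all 13498 genes tested 8.15% were called higher and 6.64% lower. C5orf38, the divergent neighbour of IRX2, was 161.8, 168.9 and 173.2 CPM in glucagon-only and 76.2, 120.9 and 59.5 CPM in TPH1 cells, a log2 fold change of 1.63 ± 0.17. The sizes depended on the scaling: with library totals in place of TMM factors, 430 genes were called higher and 3950 lower, the median of all genes moved from 0.02 to -0.49, and IRX1 and IRX2 fell to 1.18 and 0.59, both still past the threshold. For POU3F2 the fit gave 3.20 ± 0.78 (adjusted p = 0.0049) on 2 UMIs in the TPH1 sums, where the ratio pooled over libraries was 5.38 (exact interval 1.48 to 44.7). Both UMIs were in replicate 1, whose own ratio was 2.17 (0.590 to 18.0). That call was lost with DESeq2 (adjusted p = 0.081), without replicate 3 (0.34), with stricter group thresholds (0.12) and without the library block (0.19).

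Among 25 other islet transcription factors, 23 were tested against TPH1 cells, 5 were higher and 12 lower, with a median log2 fold change of -1.17 beside 0.02 for all genes. ISL1, a LIM-homeodomain factor of islet cells, was 3.84 ± 0.25. NKX6-1, a beta-cell factor, was -6.04 ± 0.50 and FEV, a factor of serotonin-producing cells, -1.55 ± 0.17. NEUROD1, a factor of endocrine differentiation, passed with TMM factors (0.73) and not with library totals (0.20). In the IRX family, IRX3 did not pass and changed sign with the scaling (0.28 and -0.25), IRX5 was -2.57 ± 1.03 with an adjusted p of 0.10 that became 0.029 with library totals, and IRX4 and IRX6 were at 0 in glucagon-only and TPH1 cells. IRX5 was 0.348, 0.593 and 0.517 CPM in glucagon-only cells and 25.5, 9.84 and 24.9 CPM in FABP7 cells. POU3F1 and POU3F3 were at 0 in glucagon-only and TPH1 cells, while FABP7 cells held 12, 0 and 3 UMIs of POU3F3 and 1, 0 and 0 of POU3F1. Mean POU3F4 was 0.300 CPM in glucagon-only, 0.846 CPM in TPH1 and 5.32 CPM in FABP7 cells. The 4 tested enterochromaffin markers, among them TPH1 itself, were all lower in glucagon-only cells, and the list's summed level was 221 to 277 CPM there and 2478 to 3394 CPM in TPH1 cells.

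IRX1 and IRX2 were also higher in glucagon-only than in collagen cells. This fit used replicates 2 and 3, since replicate 1 had 9 collagen cells, under the minimum of 10. The log2 fold change was 2.42 ± 0.34 for IRX1 (edgeR adjusted p = 1.5e-11) and 3.42 ± 0.27 for IRX2 (1.0e-34), with a median of 0.22 over the 13160 genes tested, of which 18.6% were called higher and 16.4% lower. C5orf38 was 4.16 ± 0.39, and the IRX family member IRX5 was -5.13 ± 0.85. POU3F2 was 3.43 ± 1.39 (edgeR adjusted p = 0.041) on 1 UMI in the collagen sums, with a ratio of 9.21 pooled over 3 libraries (exact interval 1.64 to 365). That call was lost with DESeq2 (adjusted p = 0.38), without the library block (0.18) and with the 9 cells of replicate 1 in place of replicate 3 (0.25). Of the 25 islet transcription factors, 19 were tested, 16 higher and 3 lower (SOX4, SOX11 and SMAD9); their median was 4.41. All 7 mesenchyme markers, which include the 3 collagen genes of the rule, were lower in glucagon-only cells, and their summed level was 14894 to 20905 CPM in collagen cells.

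**Figure D2:**
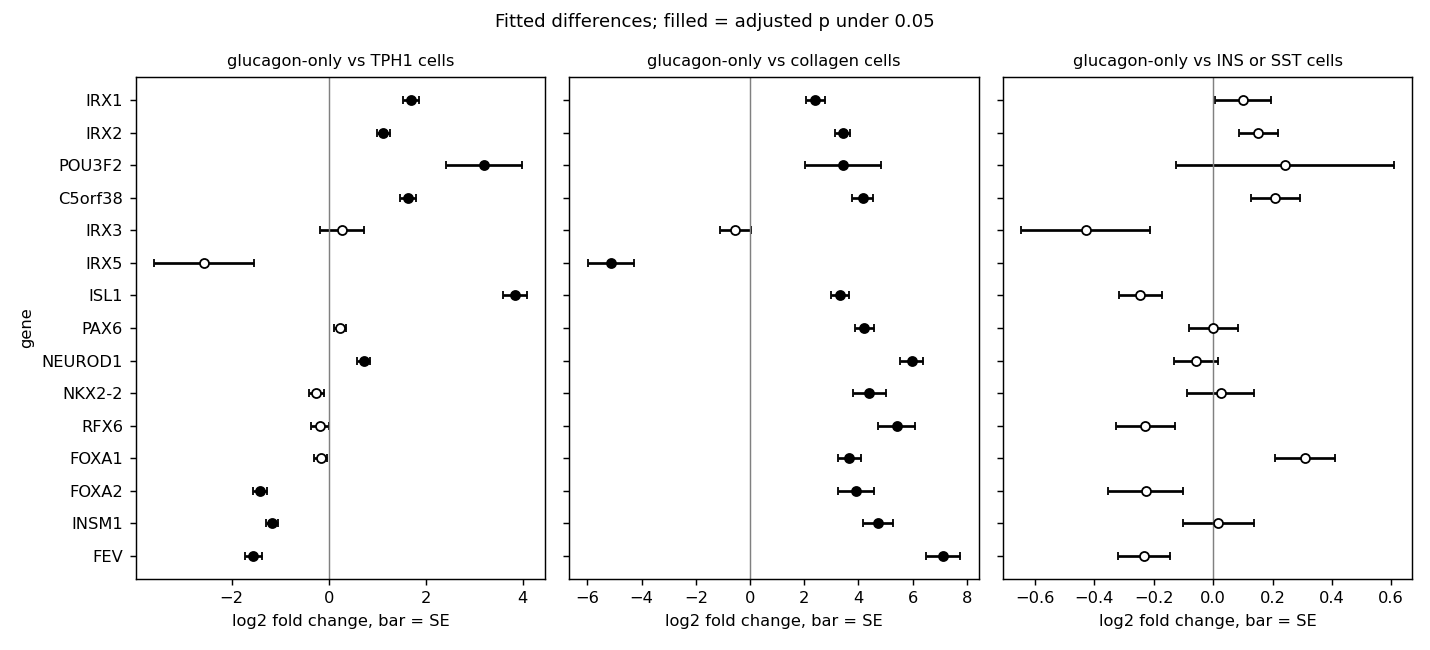
Fitted log2 fold change of glucagon-only cells over TPH1, collagen and INS or SST cells (horizontal axes with different scales; the collagen fit holds replicates 2 and 3) for the 3 genes, C5orf38, 2 IRX relatives and 9 islet transcription factors; bars are SE and filled points have an adjusted p under 0.05. IRX1 and IRX2 lie right of 0 and are filled against TPH1 and collagen cells and open against INS or SST cells; with library totals in place of TMM factors, IRX3 against TPH1 cells changed sign and NEUROD1 lost its call.

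Against INS or SST cells none of the 3 genes passed the test. The log2 fold changes of glucagon-only over INS or SST cells were 0.10 ± 0.094 for IRX1, 0.15 ± 0.067 for IRX2 and 0.24 ± 0.37 for POU3F2, with edgeR adjusted p of 0.81, 0.42 and 0.92. Of 13213 genes, 1.52% were called, 0.53% higher and 0.991% lower. IRX2 was higher in glucagon-only cells in 3 of 3 libraries, and with stricter group thresholds, which left replicates 1 and 2, its value was 0.38 with an adjusted p of 3.6e-04. C5orf38, at 141, 148 and 139 CPM in INS or SST cells, did not pass either (0.21 ± 0.082, edgeR adjusted p = 0.33). Most INS or SST cells also met the GCG rule: 42 of 55, 79 of 104 and 27 of 35. In those, IRX2 was 395, 419 and 364 CPM, and in the 13, 25 and 8 INS or SST cells with less GCG it was 222, 399 and 303 CPM, lower in each library. IRX1 was 104, 131 and 128 CPM in the first and 89.9, 142 and 157 CPM in the second, with both directions among the libraries. These 2 sets were described and not tested. Of 9 alpha-cell markers, 4 were higher in glucagon-only cells (GC 0.69, LOXL4 0.88, DPP4 0.44 and CRYBA2 0.22) and PLCE1 was lower (-1.35). Of 21 islet transcription factors tested HHEX, a delta-cell factor, was the 1 that passed, at -4.48 ± 0.40.

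Across all kept cells, IRX1 and IRX2 were lower in those with little GCG, many of which belong to the collagen, TPH1 and FABP7 groups. With GCG left out of the total, IRX1 was 31.6 ± 4.59 CPM (SD, n = 3) in cells under 0.1% GCG, 71.7 ± 23.3 at 0.1 to 1%, 140 ± 19.5 at 1 to 5% and 139 ± 22.5 at 5 to 10%. IRX2 was 106 ± 31.4, 307 ± 90.8, 495 ± 53.7 and 503 ± 39.98 CPM in the same bins. Cells in none of the named groups made up 39.1%, 38.1% and 22.1% of the lowest bin, 62.8%, 53.2% and 45.2% of the next and 95.7%, 84.5% and 96.7% of the bin at 1 to 5%, and the others below 1% were collagen, TPH1, FABP7 and INS or SST cells. In the ungrouped cells alone, IRX1 was 38.3, 6.74 and 41.5 CPM under 0.1% GCG (8, 1 and 20 UMIs), 70.5, 92.3 and 65.8 CPM at 0.1 to 1% and 119, 161 and 140 CPM at 1 to 5%. IRX2 in these cells was 120, 128 and 116 CPM, then 413, 369 and 260 CPM, then 483, 582 and 470 CPM, so the order of the bins was the same in each library for both genes. From 1% GCG upward the means lay between 139 and 160 CPM for IRX1 and between 462 and 511 CPM for IRX2, with SDs of 3.85 to 22.5 and 34.2 to 53.7 CPM. Cells at 1 to 5% had medians of 8776 and 5428 UMIs in replicates 1 and 2, the lowest of each library's bins. In replicate 3 their median was 8738 UMIs, above the 7136 UMIs at 0.1 to 1%. The part of depth was not tested. POU3F2 showed no such step: it was 9.17 ± 11.1 CPM under 0.1% GCG and 6.14 ± 4.92 CPM at 20% or more.

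**Figure D3:**
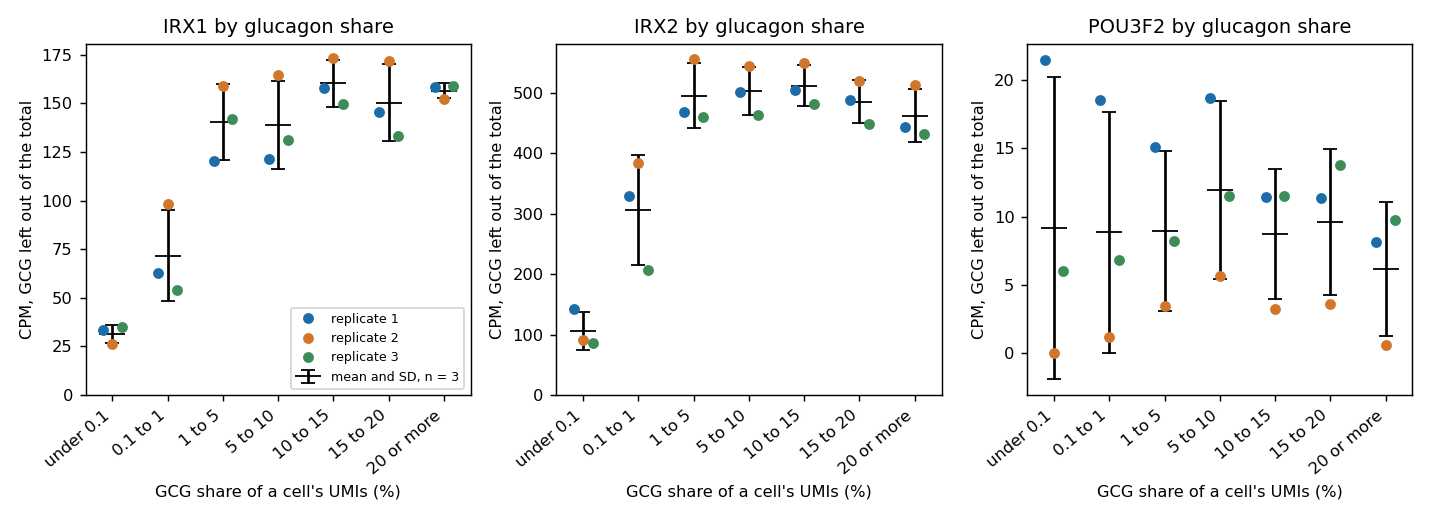
Level of IRX1, IRX2 and POU3F2 (CPM with GCG left out of the total, vertical axes with different scales) by GCG share of a cell's UMIs (horizontal axis, 7 bins, all kept cells, so that the bins under 1% hold many collagen, TPH1 and FABP7 cells); points are the 3 libraries and bars the mean and SD. IRX1 and IRX2 are lowest under 0.1% GCG and show no further step from 1% upward, while POU3F2 has no step and is lowest in replicate 2 in every bin.

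Within glucagon-only cells the relation to GCG was weak. Spearman's rho between a cell's GCG share and the gene's share of the other UMIs, a description over 809, 778 and 884 cells, was 0.085, -0.00038 and 0.069 for IRX1, -0.079, 0.027 and -0.024 for IRX2 and -0.055, -0.078 and 0.055 for POU3F2. The GCG share itself rose with total UMIs (rho 0.35, 0.38 and 0.37). With GCG left out of the total, IRX1 was 156, 154 and 144 CPM in the third of glucagon-only cells with the highest GCG share and 133, 172 and 131 CPM in the third with the lowest, so replicate 2 went the other way from replicates 1 and 3. IRX2 was 438, 508 and 445 CPM against 507, 532 and 456 CPM. POU3F2 was counted 35, 8 and 41 times against 68, 19 and 23 times, lower in replicates 1 and 2 and higher in replicate 3. Between the third of glucagon-only cells with the highest GCG share and the third with the lowest, the log2 fold change was 0.13 ± 0.071 for IRX1, -0.022 ± 0.055 for IRX2 and -0.51 ± 0.26 for POU3F2, with edgeR adjusted p of 0.43, 0.92 and 0.42. Median depths were 19362, 25297 and 12160 UMIs in the upper and 14614, 17634 and 9243 UMIs in the lower cells, and their part in the result was not tested. Of 12506 genes, 2.08% were called, 1.14% higher and 0.936% lower, among them PCSK2, the glucagon-processing protease, at 0.71 ± 0.074, and DPP4, a peptidase, at -1.47 ± 0.078. Without replicate 2 IRX1 was 0.28 (adjusted p = 0.021), and without replicate 3 POU3F2 was -1.17 (adjusted p = 0.0042).

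IRX1 was found slightly more often in glucagon-only cells with IRX2 than in those without. At 5000 UMIs per cell an IRX1 UMI was expected in 45.3%, 49.4% and 44.5% of glucagon-only cells with IRX2 and in 40.3%, 43.1% and 41.7% of those without, a difference of 4.68 ± 1.73 percentage points (SD, n = 3) in the same direction in 3 of 3 libraries. POU3F2 did not follow either gene: the difference was -0.0859 ± 0.554 points by IRX2 and -0.366 ± 1.13 points by IRX1, with both signs among the libraries. IRX2 alone was the most frequent pattern (43.8%, 42.8% and 43.9% of cells), then IRX1 and IRX2 (36.0%, 41.7% and 35.8%). None of the 3 was expected in 9.13%, 8.02% and 9.07% of cells and all 3 in 1.97%, 0.617% and 1.35%. At full depth all 105 and all 34 cells with a POU3F2 UMI in replicates 1 and 2, and 65 of 69 in replicate 3 (94.2%), also had an IRX2 UMI, beside 96.6%, 95.03% and 94.8% of the cells without POU3F2.

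**Figure D4:**
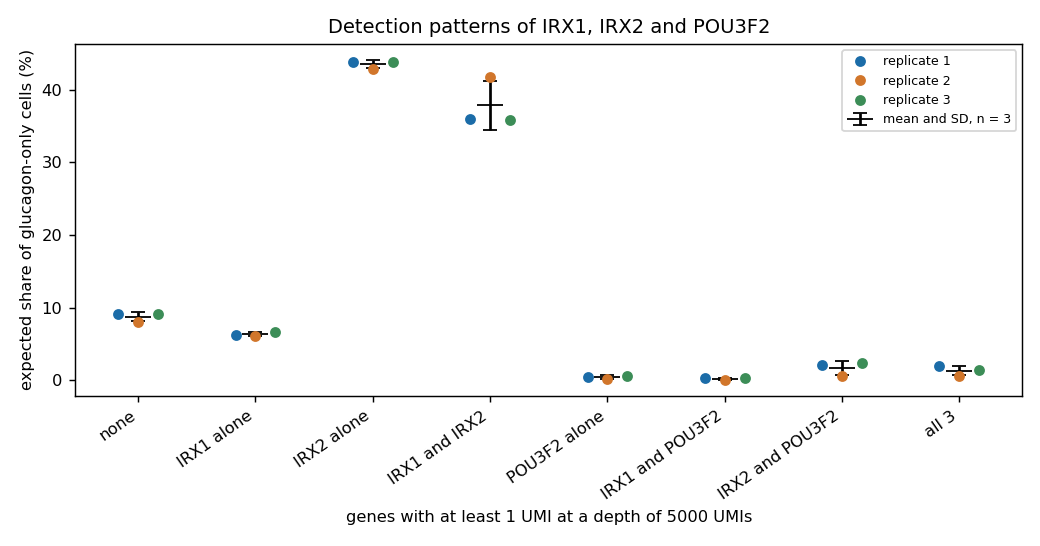
Expected share of glucagon-only cells (vertical axis, percent) with each combination of IRX1, IRX2 and POU3F2 at a depth of 5000 UMIs (horizontal axis), for 773, 697 and 832 cells; points are the 3 libraries and bars the mean and SD. IRX2 alone and IRX1 with IRX2 hold most cells, and each pattern with POU3F2 holds under 2.5%.

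Cells in which a gene was detected were compared with cells in which it was not, after each glucagon-only cell was drawn down to 5000 UMIs. These comparisons depended on the random draw. The draw was made again, with a seed for each cell, after the calls of a first draw had been seen, and the first draw is given beside it. IRX2 was 456, 502 and 455 CPM in cells with IRX1 and 390, 440 and 396 CPM in cells without, a log2 fold change of 0.19 ± 0.047 that was positive in 3 of 3 libraries. Its edgeR quasi-likelihood p was 5.6e-05 unadjusted and 0.30 adjusted over all genes, so it did not pass. Over its 13 alternatives it ranged from 0.036 in the first draw to 0.21, and it was 0.14 with another seed; 1 of the 13 passed, with up to 30% mitochondrial UMIs allowed (0.20, adjusted p = 0.0014). IRX1 in cells with and without IRX2 differed by 0.24 ± 0.12 (adjusted p = 0.99). In the IRX1 split 1 gene of 10738 was called, 0.00931%: IAPP, the islet amyloid polypeptide, at -1.62 (adjusted p = 0.025), which the first draw also called and another seed did not. The IRX2 split called 0 genes with edgeR, 0 with DESeq2, 14 in the first draw and 1 with another seed, and 523 genes had an unadjusted p under 0.05; of the 15 genes called in any draw, 0 were called in more than 1.

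The POU3F2 split called 6 of 10645 genes, 0.0564% (0.0282% higher and 0.0282% lower), in the main draw, 5 in the first draw and 3 with another seed; DESeq2 called 0. CRH, the gene of corticotropin-releasing hormone, was the only one of 11 genes called in all 3 draws. It was 226, 233 and 371 CPM in cells with POU3F2 and 139, 91.7 and 176 CPM in cells without, on 52, 14 and 76 UMIs in the first group, and the log2 fold change was 0.86, 1.00 and 0.96 in the main, first and other draw (edgeR adjusted p = 8.5e-04, 6.0e-05 and 0.021). The call was lost with DESeq2 (adjusted p = 0.43), without replicate 3 (0.999) and without the library block (0.33). TM4SF4, a membrane protein, was 1.32 ± 0.22 in the main draw and 0.93 and 1.05 in the others, where it was not called. AFP, the fetal liver protein, was -1.51 and was called in 2 of 3 draws, with 20, 0 and 0 UMIs in the cells with POU3F2. BASP1 (1.07), INS (-0.89) and MFAP4 (-0.93) were called in the main draw only. IRX1 and IRX2 did not pass in this split (-0.10 ± 0.20 and -0.20 ± 0.16), and the POU3F2 groups held 46, 12 and 41 cells.

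Over the 15 sums of 5 groups in 3 libraries, Pearson's r of log2 levels centred within library was 0.908 between IRX1 and IRX2, 0.746 between IRX1 and POU3F2 and 0.708 between IRX2 and POU3F2. The FABP7 cells, under 10 in replicate 2, were not among the 5 groups. The collagen sum of replicate 1 was kept, although its 9 cells were also under 10. In FABP7 cells mean POU3F2 was 19.7 CPM, with IRX1 at 28.8 CPM and IRX2 at 106 CPM. Among 6333 genes of at least 20 CPM, the 5 most like IRX1 were GRIA3, PPP1R1A, APOH, GAD2 and SGPP2 (r 0.977 to 0.984), and the 5 most like IRX2 were MOB1B, FRRS1L, EMC10, NEURL1 and SYT7 (0.990 to 0.994). Those most like POU3F2 were PALLD, BSG, IFIH1, METRN and IMPA2 (0.860 to 0.912). POU3F2 itself had a mean of 4.86 CPM over these sums, under the minimum of 20 CPM, and 10 CPM was added before the log. The sums of a library share its depth and preparation, and the values describe likeness over 5 groups of cells only.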

How the data were processed

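Single-cell RNA of 3 SC-α libraries was analysed. The authors deposited, for each library, a matrix of UMI counts without normalization. Cell Ranger 4.0.0 and GRCh38 are named for it, per the submitters' processing notes. The annotation version is not given in the sources used here. In replicates 1, 2 and 3 the barcode with the fewest UMIs had 500, 503 and 501.

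Cells were filtered and grouped as stated with the results. Counts were summed per library and group (at least 10 cells) and tested with edgeR 4.0.16 quasi-likelihood (R 4.3.3, TMM, filterByExpr), with Benjamini-Hochberg adjustment over all genes at 0.05. The library was a block, because each library gives 1 sum to either side. The SE is the log2 fold change over the square root of F. The third of cells by GCG share was compared with GCG left out of the table, and the detection splits with the splitting gene left out. Expected shares at 5000 UMIs are hypergeometric. Intervals are exact at 95% (Clopper-Pearson or Poisson) and, like the 3 counts that a count of 0 allows, cover counting error only. Scrublet in scanpy 1.11.5 (Python 3.11.15) called doublets at an expected 0.8% per 1000 cells. DESeq2 1.42.0 was an alternative. Data were simulated with the means and library totals of these sums, but with a fixed dispersion for all genes and no library effect. Against TPH1 cells the test recovered 35% of genes changed by 1 and 79% of those changed by 2 on the log2 scale. In the POU3F2 split it recovered 15% and 59%. False calls were 5.79% and 6.33% of the calls in these 2 comparisons. Against collagen cells the test recovered 12% and 66%, and 1.27% of the calls were false. The spread of the real data was not used.

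Named genes are the 3 genes, their families, listed islet transcription factors and markers, the 5 most like each gene, and up to 5 genes a direction per detection split with at least 50 CPM and one sign in all libraries. The genes and lists were chosen with earlier results of these data known. AC016595.1 is outside the rule and was named for its overlap. The draw behind the detection splits was replaced after its first calls had been seen; that first draw, the split at full depth, library totals in place of TMM factors and the collagen fit with replicate 1 were alternatives chosen after seeing the data. Promoter windows come from RefSeq GRCh38.p14. Some listed genes are not reported here by name.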

Additional observations from a re-analysis of the deposited data

Results flagged for a closer look

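Barcodes left out for exceeding 20% mitochondrial UMIs also held the 3 transcripts. Their mean level was 94.0 CPM for IRX1, 340 CPM for IRX2 and 5.80 CPM for POU3F2 (n = 3 libraries), above the floor of 3 counts in every library. Barcodes under 1000 genes held 37.3, 110 and 1.58 CPM.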

How the results depend on the processing

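IRX1 and IRX2 stayed past the threshold against TPH1 cells in all 13 alternatives (1.18 to 1.80 and 0.59 to 1.28) and against collagen cells in all 11 (1.86 to 2.66 and 3.22 to 3.72). No collagen fit could be made with at least 2000 genes or stricter thresholds (fewer than 2 libraries with 10 cells), nor with a library left out of the 2 used; the IRX2 split at full depth had 6 and 7 cells without IRX2 in replicates 1 and 2. The causes of the changes below were not tested.

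The blocked fit was the main one, since both sums of a pair share a library. With no replicate block, POU3F2 was 2.96 against TPH1 cells (adjusted p = 0.19) and 2.89 against collagen cells (0.18), and the calls fell to 12 against INS or SST cells and 0 by GCG share, in the IRX1 split and in the POU3F2 split; IRX1 and IRX2 kept their calls.

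With DESeq2, POU3F2 was 2.89 against TPH1 and 2.64 against collagen cells, and 1150, 2205, 76, 83, 0 and 0 genes were called against TPH1, collagen and INS or SST cells, by GCG share and in the IRX1 and POU3F2 splits, beside 1996, 4602, 201, 260, 1 and 6. Stricter thresholds gave POU3F2 1.86 against TPH1 cells and IRX2 0.38 against INS or SST cells. Library totals called 4380 genes against TPH1 cells, 584 by GCG share and 11 in the POU3F2 split, where IRX1 was 0.015. Thinned cells called 2578, 73 and 107 genes against collagen and INS or SST cells and by GCG share. A limit of 30% mitochondrial called 373 and 429 genes against INS or SST cells and by GCG share and 5, 7 and 17 in the IRX1, IRX2 and POU3F2 splits, with IRX2 at 0.20 in the first; at least 2000 genes called 450 by GCG share. With no filter the IRX1 and IRX2 splits called 4 and 1. Another seed called 0, 1 and 3 in the 3 splits, with POU3F2 at 0.093 in the IRX2 split, and the first draw 14 in the IRX2 split. At full depth the IRX1 split called 16 genes, with IAPP at 0.34, and the POU3F2 split 96, with IRX2 at 0.012. With GCG, INS, SST and TTR left out of totals, IRX1 was 167 and 160 CPM and IRX2 545 and 487 CPM in glucagon-only and INS or SST cells.

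Leaving out 1 library gave POU3F2 1.84 to 8.86 against TPH1, 3.64 to 8.70 against collagen (with the 9 cells of replicate 1), -0.034 to 0.57 against INS or SST cells and -1.17 to 0.024 by GCG share; it gave IRX1 -0.0061 to 0.17 against INS or SST cells and 0.047 to 0.28 by GCG share, and IRX2 -0.060 to 0.035 by GCG share. POU3F2 ranged from -0.28 to 0.18 in the IRX1 split and -0.57 to 0.45 in the IRX2 split, and IRX1 from -0.49 to 0.21 in the POU3F2 split. The calls ranged from 1270 to 2193 against TPH1 cells, 1819 to 4674 against collagen cells, 24 to 335 against INS or SST cells, 134 to 301 by GCG share, and 0 to 4, 0 to 4 and 0 to 8 in the 3 splits. Replicate 3 holds most TPH1 and collagen cells. POU3F2 had 2 UMIs in all TPH1 cells and 1 in all collagen cells, so its differences there are poorly bounded.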
